A study of Homo sapiens with 4 samples.

Results

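The p53 target genes described here are 32 genes whose transcription is known to be raised by the tumour suppressor p53. The list was given as gene symbols, and each symbol was matched to the Ensembl identifier of its row. All 32 genes are among the 32991 genes listed in all 4 count tables. A total of 31 members had at least 1 UMI in every library, and SPATA18, a gene of mitochondrial quality control, had none in any library. With 0 UMIs the upper limit of its level, taken as 3 UMIs per library, was 0.0513 CPM (UMIs scaled to a library total of 1000000) in S, the deepest library, and 0.118 in RVT, the shallowest.

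Single-cell transcriptomes were measured in A375, an established human melanoma line with the BRAF V600E mutation, on the 10x Genomics platform with v2 chemistry. S was untreated. RV had been made resistant to the BRAF inhibitor vemurafenib, RVC to vemurafenib with the MEK1/2 inhibitor cobimetinib, and RVT to vemurafenib with the MEK1/2 inhibitor trametinib, by exposure for 10 to 14 days at concentrations below the IC50. All 3 drugged cultures stood without drug for 24 h before capture. Each condition is 1 culture and 1 library, so no difference between conditions has a replicate, no test between conditions was possible, and all intervals below cover counting error only.

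p53 is a transcription factor that is kept scarce in unstressed cells because MDM2, the product of a p53 target gene, marks it for destruction. Damage to DNA and other stresses stabilise p53, which then binds response elements made of a pair of adjoining decamers near its target genes. The best known target, CDKN1A, encodes p21, which blocks cyclin-dependent kinases and, through the DREAM complex, lowers the genes of mitosis. MDM4, a relative of MDM2, also restrains the pathway and is known for this in melanoma.

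The response element is what joins these genes, and the sites nearest to the consensus are shown to make the shared sequence visible. The RefSeq promoter windows (GRCh38.p14, 250 bases before to 50 bases after a start) hold 24 of the 32 members. Each window was searched for 2 decamers of the p53 consensus with no gap, requiring C at position 4 and G at position 7 of each decamer. The consensus reads the same on both strands. With up to 3 mismatches over the 20 bases, 7 of the 24 members had a match, against 373 of 27305 genes (1.37%). With up to 2 mismatches it was 4 of the 24 members, against 98 genes (0.36%). A match is a description of these letters and not of binding, and no match says only that such letters are not in the window. In the matches below, written 5′ to 3′ on the strand of the gene, the capitals mark the required C and G of each decamer.
MDM2: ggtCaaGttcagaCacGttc
DDB2: aagCtgGtttgaaCaaGccc
FAS: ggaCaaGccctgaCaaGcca
AEN: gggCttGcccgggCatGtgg
FDXR: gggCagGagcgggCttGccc
SESN1: ggaCaaGtctccaCaaGtca
GDF15: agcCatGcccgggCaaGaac

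The DDB2 match had 1 mismatch and spans the start of transcription, from 5 bases before it to 14 after it (chr11:47214969-47214988, plus strand). The matches of MDM2 (chr12:68808923-68808942, plus strand), FAS (chr10:88991309-88991328, plus strand) and AEN (chr15:88621306-88621325, plus strand) had 2 mismatches and begin 94, 122 and 34 bases before a start. Those of FDXR (chr17:74872996-74873015, minus strand) and SESN1 (chr6:109009018-109009037, minus strand) had 3 mismatches and begin 21 and 49 bases before it. The GDF15 match (chr19:18386186-18386205, plus strand), also with 3, begins 28 bases after the start, in the transcribed part. An exact decamer on its own occurred in 6 of the 24 members, PLK2, DDB2, FAS, AEN, FDXR and SESN1, and in 8.06% of all genes. All 7 genes with a pair were measured, and their levels follow with those of the other members.

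After filtering, the libraries held 4177 to 8446 cells and 25390117 to 58519152 UMIs, with a median of 2864 (RVT) to 11553 (RV) UMIs per cell. S and RV were counted with a gene annotation that differs from that of RVC and RVT, and both combination libraries were shallower. Across genes, the log2 ratio to S was lower where the final 500 bases of the transcript held more G and C in RVC (Spearman correlation -0.36 across genes) and RVT (-0.41) but not in RV (0.01). Genes above 61% GC had a median log2 ratio to S of -2.30 in RVC and -2.22 in RVT. Drug and these library features cannot be told apart in RVC and RVT. A ratio centred within bins of GC content is therefore given for some members in the text. The plot of log2 ratios gives it for every counted member. The centring took out the difference of each bin's median from that of all genes and kept the latter. After centring the median of all genes was thus still 0.23 in RVC and 0.44 in RVT over S, and not zero. The summed markers of the melanoma lineage were 485 CPM in S and 291 in RV, with 70.9 in RVC and 250 in RVT, with TYR at 0 in all libraries and SOX10 at 0 in RVC. MIA held 50.4% of this sum in S, and PRAME held 80.7% of it in RVC. In RVC over S 5 of 7 lineage markers were at least 2-fold lower (23.2% of all genes) and 0 at least 2-fold higher (24.5%). Their median log2 ratio was -7.02, with a count of 0 taken as 3 UMIs. Markers of immune, endothelial, epithelial and fibroblast cells summed to 2.9 to 12.1 CPM, with PTPRC, CD3E and CDH1 at 0. From 36 to 103 barcodes were shared by any 2 libraries, at most 1.35% of a library's cells.

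Levels are CPM, and each UMI counts 1 transcript molecule irrespective of its length. Summed over the list, the members reached 796 CPM in S (95% interval 789 to 803), 1382 in RV (1372 to 1392), 689 in RVC and 751 in RVT. The list was thus highest in RV, at 1.74 times the level of S (log2 ratio 0.80, 95% interval 0.78 to 0.81). The sums of RVC and RVT lay within 0.21 of S on the log2 scale. CDKN1A was the member with the most UMIs in every library, and without it the sums were 694, 1134, 553 and 639 CPM. The direction in RVT over S was not stable, since the log2 ratio of the sums was -0.08 over all UMIs, 0.01 with equal weight for each cell and -0.60 with TMM library factors. That of RVT over RVC was 0.12, and -0.18 with TMM library factors. A higher level in a library can come from more cells with the transcripts or from more transcripts per cell. These were not separated, and levels in cells grouped by CDKN1A are given further below.

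Members past a fold were counted where the library with the larger value reached at least 5 CPM. In RV over S 6 of 28 members were at least 2-fold higher, where 2.62% of all 8432 genes were, and 0 were at least 2-fold lower, where 1.87% of genes were. A total of 26 of the 28 members were above S, the exceptions being SESN2 and TNFRSF10B, with a median log2 ratio of 0.59 against 0.03 over all genes. RV and S share annotation and depth range, and the counts of 6 and 0 held under each scaling tried. In RVC over S 2 of 25 members were at least 2-fold higher (24.5% of genes) and 6 at least 2-fold lower (23.2% of genes), with a median log2 ratio of -0.41 against 0.23. In RVT over S 6 of 29 members were at least 2-fold higher (35.0% of genes) and 9 at least 2-fold lower (21.9% of genes), with a median of -0.32 against 0.44. The same S library enters all 3 of these comparisons. In RVT over RVC, which share annotation and depth range, 8 of 27 members were at least 2-fold higher (20.7% of genes) and 5 at least 2-fold lower (11.7% of genes), with a median of 0.16 against 0.28. With TMM library factors the members past 2-fold were 6 higher and 13 lower in RVT over S, and 6 higher and 7 lower in RVT over RVC. The shares of all genes were then 20.4% higher and 31.5% lower in RVT over S, and 11.7% higher and 17.8% lower in RVT over RVC. The count of 6 of 29 members higher in RVT over S thus did not change, while the share of all genes fell from 35.0% to 20.4%. In the drug combinations members past 2-fold lay in both directions.

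**Figure D1:**
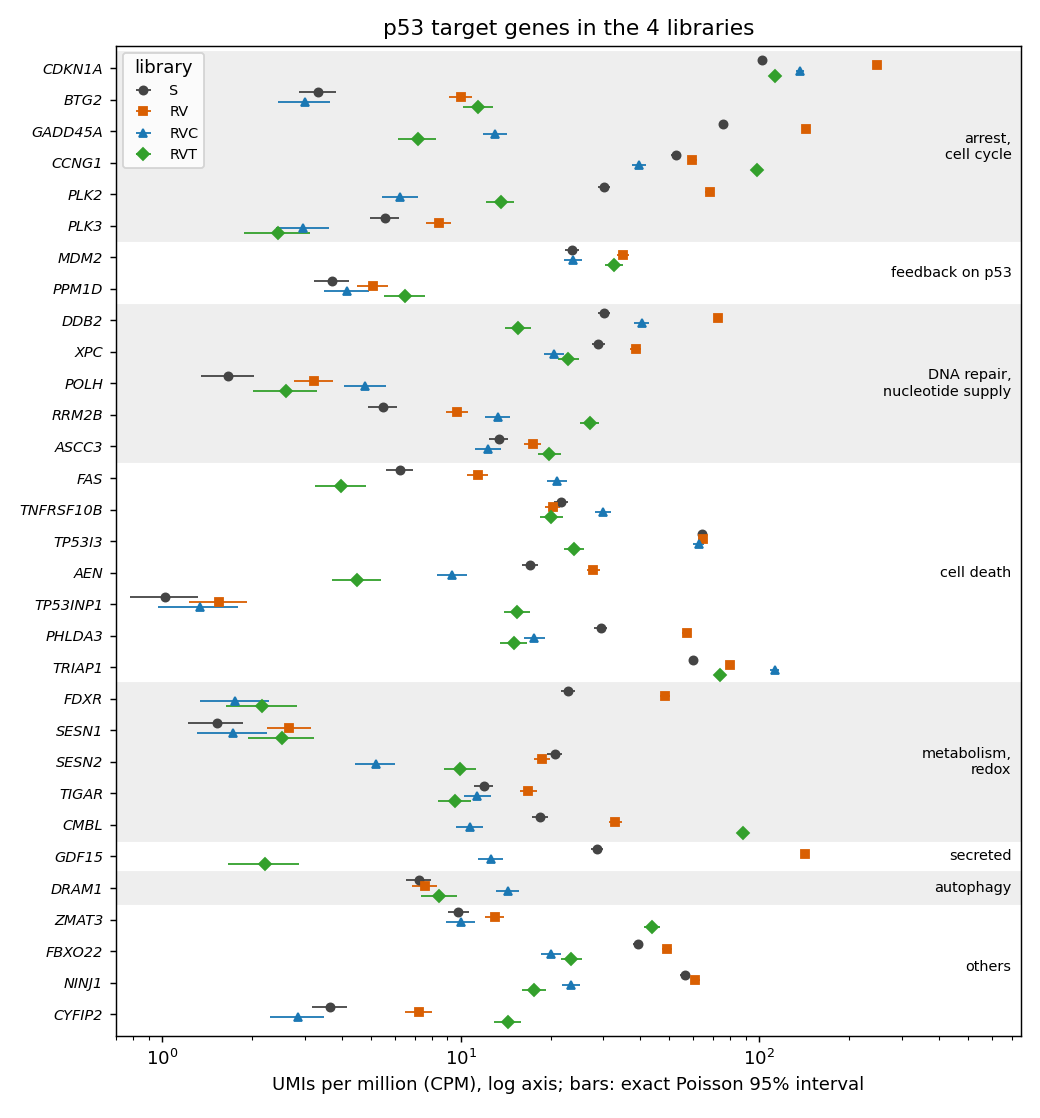
Level of each of the 31 p53 target genes with a UMI, in CPM on a log axis, in the libraries S, RV, RVC and RVT (1 library each); bars are exact Poisson 95% intervals and shading separates roles. RV lies to the right of S for most genes, from 3.32 to 9.99 CPM for BTG2 and from 28.6 to 143 for GDF15, while RVC and RVT scatter to either side.

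Among the genes of arrest and cell cycle control, CDKN1A had 102 CPM in S, as compared with 248 (RV), 137 (RVC) and 113 (RVT). RV stood apart from the other libraries, which lay within 1.34-fold of each other, and its log2 ratio to S was 1.28 (1.24 to 1.33). RVC was above S by 0.42 on the log2 scale, which was 0.21 with TMM library factors and 0.76 after centring. The log2 ratio of RVT over S was 0.14, which turned to -0.37 with TMM library factors and 0.54 after centring by GC content.

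BTG2, an antiproliferative gene of the BTG/TOB family, had 3.32 CPM in S, against 9.99 in RV, 3.002 in RVC and 11.5 in RVT. It was therefore about 3-fold above S in both RV (log2 ratio 1.59, 1.35 to 1.84) and RVT (1.79, 1.52 to 2.06), and the intervals of S and RVC overlapped. GADD45A, a stress sensor that takes part in the G2 checkpoint and in DNA repair, had 75.7 CPM in S and 143 in RV, with 13.04 in RVC and 7.17 in RVT. RVC and RVT were 5.80-fold and 10.6-fold below S, and since its transcript end is poor in GC (31.8%), centring made the log2 ratios lower, at -2.96 and -3.91.

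PLK2, a polo-like kinase of the stress response, had 30.2 CPM in S, as compared with 68.3 (RV), 6.28 (RVC) and 13.6 (RVT). It was more than 2-fold above S in RV and more than 2-fold below it in both combinations, and it was 2.16-fold higher in RVT than in RVC. PLK3, its relative, had 5.55, 8.44, 2.97 and 2.44 CPM in the same order, and its log2 ratio of -1.19 in RVT over S was -0.03 after centring. CCNG1, cyclin G1, which recruits a phosphatase to MDM2, had 52.4, 59.7, 39.5 and 97.9 CPM and was highest in RVT, 2.48-fold above RVC.

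The negative regulators of p53 were the most even part of the list. MDM2, the ubiquitin ligase of p53, had 23.6 CPM in S, against 34.98 in RV, 23.8 in RVC and 32.6 in RVT. S and RVC did not differ beyond their counting intervals (log2 ratio 0.01, -0.11 to 0.14), and RV was 1.48-fold above S. The RVT value was 1.38-fold above S but 0.05 below it on the log2 scale with TMM library factors. PPM1D, the phosphatase WIP1, which reverses phosphorylation of p53 and of its activating kinases, had 3.71, 5.07, 4.15 and 6.50 CPM.

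Among the genes of DNA repair and nucleotide supply, DDB2, the damage recognition subunit for ultraviolet lesions, had 30.2 CPM in S and 72.8 in RV, with 40.3 in RVC and 15.6 in RVT. It was highest in RV (log2 ratio to S 1.27, 1.19 to 1.35) and lowest in RVT, 2.59-fold below RVC. RRM2B, the p53-inducible subunit of ribonucleotide reductase, had 5.49 CPM in S, as compared with 9.72 (RV), 13.3 (RVC) and 27.0 (RVT). All 3 drugged libraries were above S, and RVT was 4.93-fold above it (log2 ratio 2.30, and 1.77 after centring). In RVC the log2 ratio to S was 1.28, and 0.98 after centring. XPC, which recognises damage in nucleotide excision repair, spanned 20.5 to 38.5 CPM, and ASCC3, a helicase, 12.4 to 19.8 CPM. The log2 ratio of ASCC3 in RVT over S was 0.56, and -0.09 after centring. POLH, the translesion polymerase eta, had 1.66, 3.22, 4.79 and 2.60 CPM and entered no count of ratios.

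The genes of cell death went different ways. FAS, a death receptor, had 6.24 CPM in S, against 11.4 in RV, 21.02 in RVC and 3.98 in RVT. RVC was the highest library and RVT the lowest, and the gap between them was 5.28-fold (log2 ratio of RVT over RVC -2.40, -2.72 to -2.10). TNFRSF10B, the receptor DR5 for the ligand TRAIL, had 21.7, 20.3, 30.0 and 20.1 CPM and differed from S by less than its counting interval in RV and RVT.

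TP53I3, an oxidoreductase gene of the oxidative death response, had 64.3 CPM in S and 64.6 in RV, with 62.8 in RVC and 24.0 in RVT. It was alike in the first 3 libraries and 2.68-fold below S in RVT. AEN, an apoptosis-enhancing nuclease, had 17.1, 27.8, 9.37 and 4.49 CPM, highest in RV and 3.80-fold below S in RVT. TP53INP1, which promotes p53 activity and autophagy, had 1.03 CPM in S, as compared with 1.54 (RV), 1.33 (RVC) and 15.4 (RVT). It was near 1 CPM everywhere but in RVT, where it was 15.0-fold above S and 11.5-fold above RVC, the largest such ratios in the list. PHLDA3, an inhibitor of AKT, was highest in RV (29.4, 57.2, 17.6 and 15.05 CPM), and TRIAP1, which inhibits apoptosis, was highest in RVC (60.0, 80.1, 113 and 73.9 CPM).

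Among the genes of metabolism and redox balance, FDXR, the ferredoxin reductase of mitochondria, had 23.0 CPM in S, against 48.3 in RV, 1.76 in RVC and 2.17 in RVT. RV was 2.11-fold above S, and both combinations were more than 10-fold below it. FDXR has the member transcript end richest in GC (63.8%), and after centring its log2 ratio to S was -1.17 in RVC in place of -3.71 and -0.74 in RVT in place of -3.41. CMBL, a hydrolase, had 18.4 CPM in S and 32.98 in RV, with 10.7 in RVC and 88.3 in RVT, and the gap of RVT to RVC was 8.22-fold.

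SESN2, a sestrin that restrains mTORC1 and is also induced by ATF4, had 20.7, 18.7, 5.19 and 9.96 CPM and was the member furthest below S in RV, with a log2 ratio of -0.14 (-0.27 to -0.02). In RVT its log2 ratio to S was -1.05, and -0.32 after centring. SESN1, its relative, had 1.52 to 2.67 CPM. TIGAR, which lowers glycolytic flux, had 11.9, 16.8, 11.4 and 9.57 CPM.

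GDF15, a secreted cytokine of the TGF-beta family, had 28.6 CPM in S, as compared with 143 (RV), 12.6 (RVC) and 2.21 (RVT). It had the largest ratio of the list in RV, 4.98-fold above S (log2 ratio 2.32, 2.24 to 2.39), and the lowest before centring in RVT over S, with a log2 ratio of -3.70. After centring it was -2.97, above the -3.91 of GADD45A, and in RVC over S it was -0.59 in place of -1.19. DRAM1, a lysosomal protein of autophagy, was highest in RVC with 14.3 CPM and had 7.25 in S, 7.57 in RV and 8.47 in RVT.

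Of the remaining members, ZMAT3, a regulator of splicing, had 9.83 CPM in S, against 13 in RV, 10.0 in RVC and 43.8 in RVT. CYFIP2, a subunit of the WAVE complex for actin, had 3.64, 7.22, 2.85 and 14.4 CPM. Both were highest in RVT, at 4.37-fold and 5.04-fold the level of RVC. FBXO22, a ubiquitin ligase subunit, had 39.3, 49.0, 20.02 and 23.4 CPM. NINJ1, which mediates membrane rupture in dying cells, had 56.3, 61.0, 23.4 and 17.6 CPM. The sign of its log2 ratios to S changed with centring, from -1.26 in RVC and -1.68 in RVT to 0.38 and 0.31. The medians of all genes after centring were 0.23 and 0.44, so NINJ1 was above the median in RVC and below it in RVT.

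The genes more than 2-fold above S in RVT were BTG2, RRM2B, TP53INP1, CMBL, ZMAT3 and CYFIP2, and those more than 2-fold below it were GADD45A, PLK2, PLK3, TP53I3, AEN, FDXR, SESN2, GDF15 and NINJ1. Under all scalings tried, the centring included, 11 of these 15 stayed past 2-fold, and the others were PLK3, FDXR, SESN2 and NINJ1. In RVC the genes past 2-fold below S were GADD45A, PLK2, FDXR, SESN2, GDF15 and NINJ1 and those above it RRM2B and FAS, of which 5 of 8 stayed past it (not RRM2B, GDF15 and NINJ1). In RVT over RVC 10 of 13 stayed past it (not PLK2, RRM2B and AEN). In RV all 6, CDKN1A, BTG2, PLK2, DDB2, FDXR and GDF15, stayed past it. How many of all genes past 2-fold stay past it under the same scalings was not counted, so these counts are not set against a background.

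**Figure D2:**
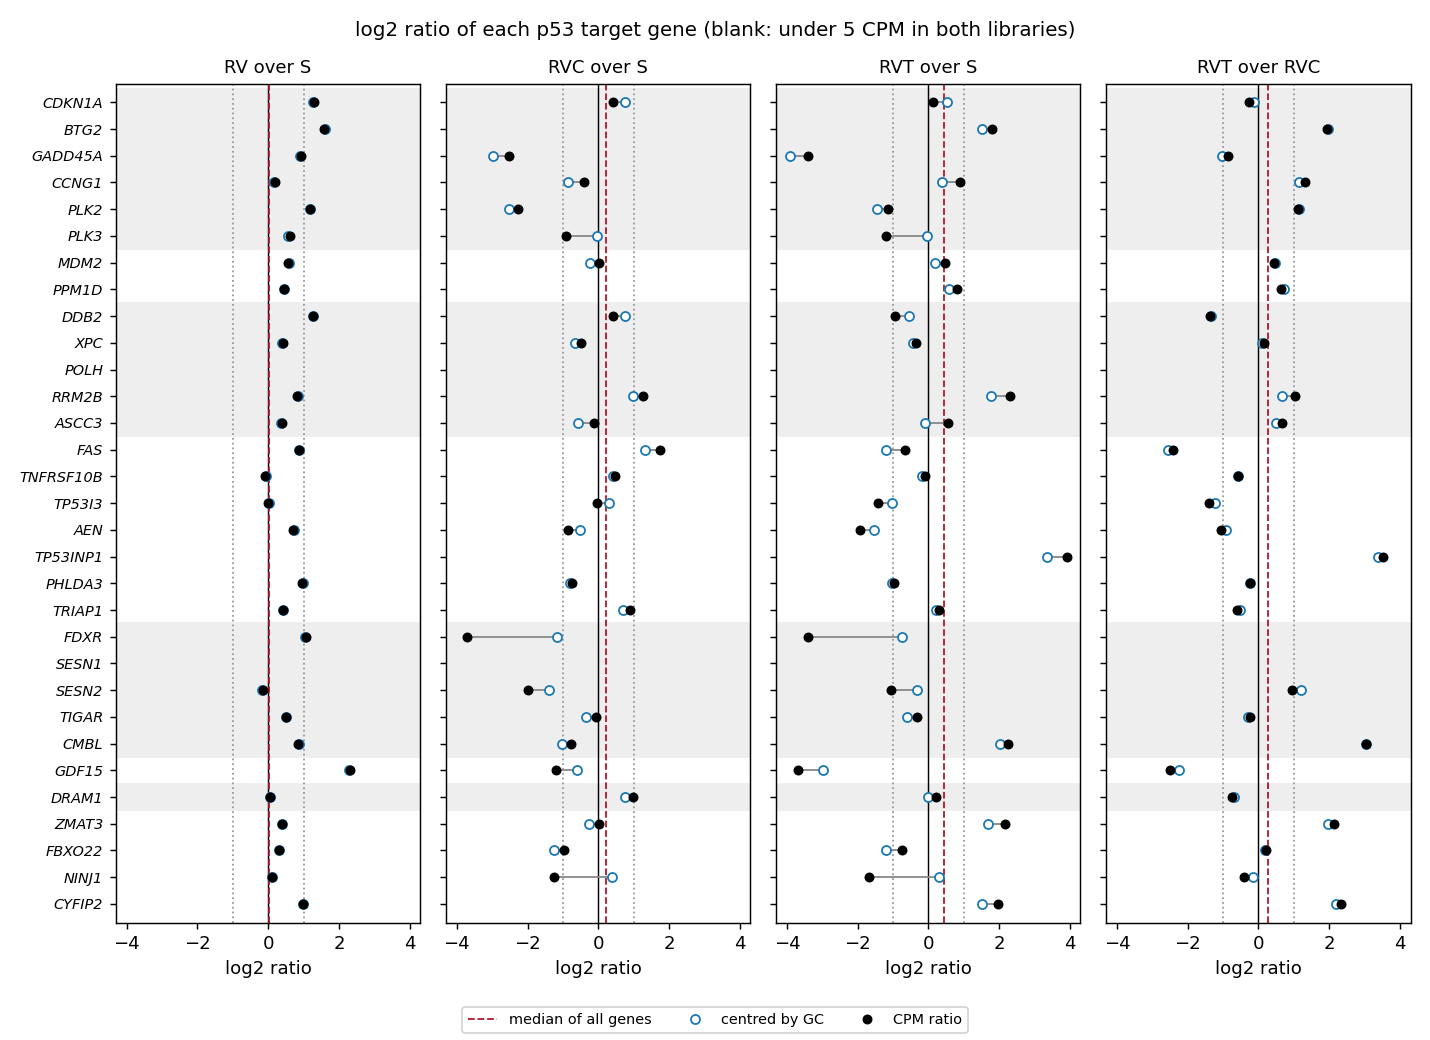
Log2 ratio of each member in RV, RVC and RVT over S and in RVT over RVC, from CPM (black) and after centring within bins of GC content (open), with the median of all genes as a dashed line and 2-fold as dotted lines. In RV over S both values nearly coincide and 26 of 28 members lie right of 0, while in RVC and RVT over S the values of FDXR, NINJ1 and PLK3 move far to the right after centring.

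The other genes of the pathway were taken from 2 fixed lists. Of 15 further p53 targets, 9 had at least 5 CPM in RV or S, and 8 of these were above S in RV, as were 53.9% of all genes, with a median log2 ratio of 0.54, though 0 were past 2-fold. RPS27L, a ribosomal protein relative induced by p53, had 477 CPM in S and 928 in RV, with 887 in RVC and 663 in RVT. It held most of the UMIs of this list. Its log2 ratios to S of 0.89 in RVC and 0.47 in RVT were 0.61 and 0.01 after centring. BAX, the pore-forming effector of apoptosis, had 119, 206, 34.5 and 24.0 CPM, and its log2 ratios to S of -1.79 in RVC and -2.31 in RVT were -0.14 and -0.33 after centring. PMAIP1, which encodes NOXA, had 57.3, 85.7, 26.8 and 12.4 CPM. In RVC over S 1 of 9 of these targets was at least 2-fold higher, against 24.5% of all genes. A further 5 of the 9 were at least 2-fold lower, against 23.2%, with a median log2 ratio of -1.10 against 0.23. After centring BAX (-0.14), BBC3 (-0.99) and PIDD1 (0.36) were not past 2-fold there. In RVT over S 4 of 12 were at least 2-fold higher, against 35.0% of all genes, among them FBXW7, a ubiquitin ligase subunit. A further 6 of the 12 were at least 2-fold lower, against 21.9% of all genes. After centring 5 were at least 2-fold higher (32.6% of all genes) and 3 at least 2-fold lower (16.9%).

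Of 10 regulators of p53 with at least 5 CPM, 2 were above S in RV and 8 below it, where 53.9% of all genes were above. Their median log2 ratio was -0.27, against 0.03 over all genes, and 0 were past 2-fold (2.62% and 1.87% of all genes). MDM4, the relative of MDM2 that holds p53 inactive, had 32.8, 24.5, 40.6 and 80.1 CPM. It was highest in RVT, at 2.44-fold the level of S (log2 ratio 1.29, and 1.01 after centring). CDKN2A, whose product ARF inhibits MDM2, had 7.21, 9.40, 0.39 and 0.87 CPM.

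Whether the members vary together was described across the cells of each library. Every cell was thinned to 1500 UMIs, and Pearson's r with CDKN1A was taken on log2(1 + UMIs) for genes with at least 5 CPM. Cells of a library share its culture and its free RNA, and counts this sparse hold r down, so these values describe each library and were not tested. In S the median r of 24 members was 0.048, and 2 reached 0.1, against 0.112% of all genes. In RV the median of 27 members was 0.059, and 9 reached 0.1, against 0.472% of genes. In RVC the median of 22 members was 0.035 and 4 reached 0.1, against 0.109% of genes, and 2 did with another random draw of UMIs. In RVT the median of 23 members was 0.012 and 0 reached 0.1, against 0.0224% of genes. Members were above zero in 23 of 24 cases in S, 26 of 27 in RV, 21 of 22 in RVC and 18 of 23 in RVT, where 43.0% to 52.7% of all genes were.

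FDXR led in S (r = 0.172) and RV (0.196), and MDM2 came next (0.143 and 0.195). In RVC the first was GDF15 (0.221), followed by MDM2 (0.166) and DDB2 (0.123), and in RVT it was MDM2 (0.082). RRM2B, highest in RVT by level, was next there (0.079) and had 0.102 in RVC and 0.020 in S. FAS had 0.084 in S and 0.081 in RV. FDXR in RVC and RVT, GDF15 in RVT and SESN1 in all libraries were below 5 CPM and have no r. SESN2 was between -0.006 and 0.019 in all 4 libraries, and CCNG1 between -0.011 and 0.050.

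Depth allowed a sharper view in S and RV, whose cells could be thinned to 5000 UMIs. There 11 of 24 members in S and 17 of 27 in RV reached 0.1, against 0.523% and 2.02% of all genes. In RV the highest were FDXR (0.375), MDM2 (0.362), DDB2 (0.340), GDF15 (0.278), BTG2 (0.244) and PHLDA3 (0.236). In S they were MDM2 (0.322), FDXR (0.283), DDB2 (0.209), ZMAT3 (0.161) and PHLDA3 (0.158). SESN2 (0.002 in S and 0.010 in RV), CCNG1 (0.010 and 0.071) and TNFRSF10B (0.030 and 0.052) stayed low at this depth as well.

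**Figure D3:**
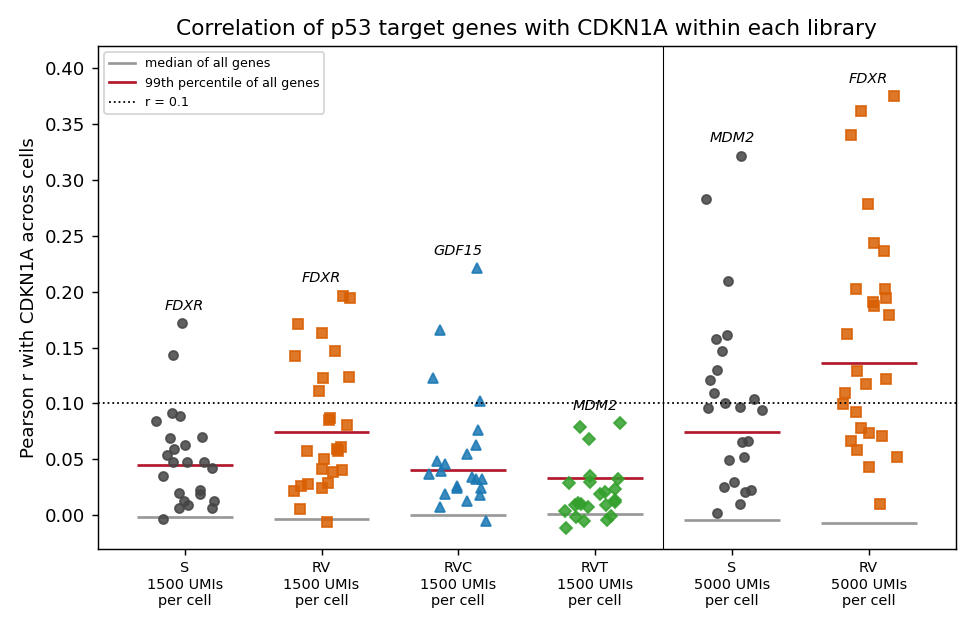
Pearson r of each member with CDKN1A across the cells of each library thinned to 1500 UMIs (left) and of S and RV thinned to 5000 UMIs (right); each point is a member, and lines give the median and the 99th percentile of all genes and r = 0.1. Most members sit above the median of all genes in every library, with medians of 0.048 in S and 0.012 in RVT at 1500 UMIs.

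**Figure D4:**
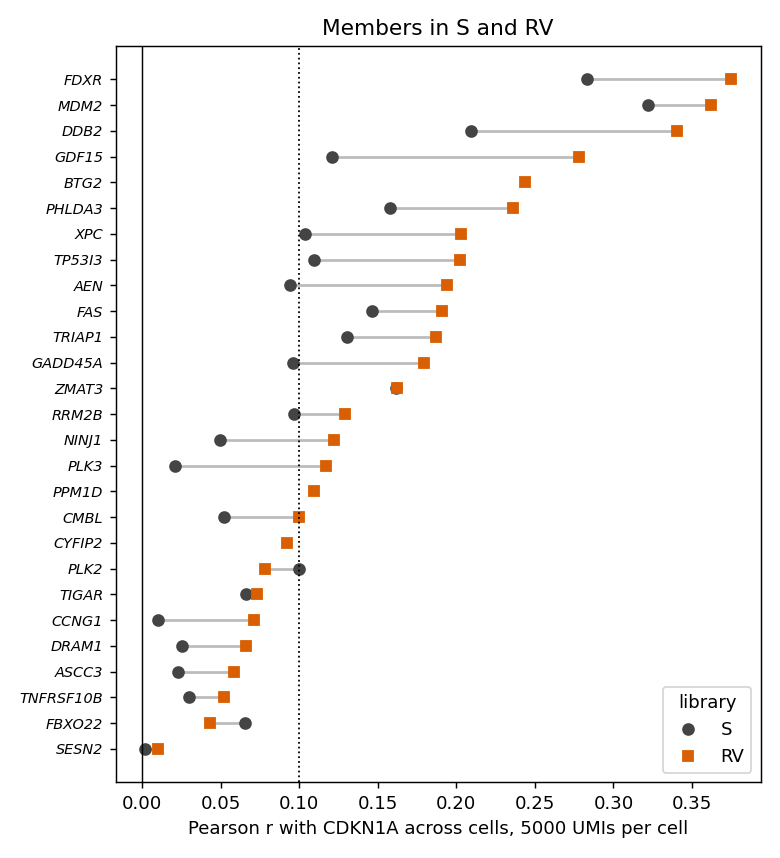
Pearson r with CDKN1A of each member in S (circles) and RV (squares) across cells thinned to 5000 UMIs, ordered by RV; the dotted line is r = 0.1. FDXR, MDM2 and DDB2 are highest in RV at 0.375, 0.362 and 0.340, and SESN2 is lowest at 0.010.

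Pairs of members other than CDKN1A were also described. At 5000 UMIs per cell, 325 of 351 pairs had r above zero in RV, with a median of 0.044, where 53.1% of all pairs of genes were above zero. Of these, 61 pairs reached 0.1, against 0.123% of all pairs. In S it was 233 of 276 pairs, with a median of 0.016, where 52.6% of all pairs were above zero. Of these, 8 pairs reached 0.1, against 0.0748% of all pairs. The strongest pair in RV was GADD45A with AEN (0.27), both of which had lower values with CDKN1A itself (0.18 and 0.19). GADD45A and GDF15 had r = 0.20 in RV, and the strongest pair in S was MDM2 with FDXR (0.18).

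By the rule for genes outside the list, the 5 genes with the highest r with CDKN1A at 1500 UMIs were taken in each library. NEAT1, a nuclear noncoding RNA, was first in S (0.245), RV (0.341) and RVC (0.256) and second in RVT (0.117). RPS27L was second in S (0.240) and RV (0.248), the third in RVC (0.195) and first in RVT (0.154). The others in S were FDXR, MDM2 and RPS19, in RV SUGCT, H1-2 and IL24, in RVC GDF15, MDM2 and DDB2, and in RVT MDM2, RRM2B and PCSK1.

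Cells were then grouped by CDKN1A UMIs among their 1500. In S 5731 of 6334 cells had 0 and 54 had 3 or more, in RV 3348 of 4177 and 137, in RVC 6368 of 7231 and 113, and in RVT 6555 of 7602 and 33. The summed other members stood at 619 CPM in S cells with 0, 975 with 1, 1546 with 2 and 1926 with 3 or more. In RV the same groups had 877, 1274, 2469 and 2925 CPM, in RVC 514, 695, 1153 and 1681, and in RVT 633, 780, 890 and 1172. The sum thus stepped up with CDKN1A in each library, 3.11-fold from 0 to 3 or more in S, 3.33-fold in RV, 3.27-fold in RVC and 1.85-fold in RVT. The level in RV was above that in S in every group, the cells with 0 CDKN1A UMIs included. A cell with 0 among 1500 UMIs can still hold the transcript. In cells thinned to 5000 UMIs, those with 0 were 4724 of 5984 in S and 2420 of 4077 in RV.

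The sum of the other p53 targets, most of which is RPS27L, showed the same order, from 628 to 2148 CPM in S and from 1094 to 2672 in RV, then from 940 to 2991 in RVC and 717 to 1818 in RVT. Without RPS27L, cells with at least 2 CDKN1A UMIs stood 1.95-fold above cells with 0 in S, 1.87-fold in RV, 1.72-fold in RVC and 2.11-fold in RVT. The summed regulators of p53 went from 306 to 272 CPM in S, from 291 to 238 in RV and from 330 to 313 in RVC. In RVT they went from 459 to 586 CPM, and at 1500 UMIs per cell the intervals of the end groups overlapped in each of the 4 libraries. The last groups held only 22 UMIs of the regulators in S, 49 in RV and 53 in RVC. The overlap therefore does not show that the levels were alike. Between the end groups the 20 mitotic genes went the other way in S (692 to 173 CPM), RV (948 to 273) and RVC (1604 to 419). The end groups of RVT had 352 and 364 CPM. The latter comes from the fewest cells of any library, so no direction is read from it, and the groups between are in the plot. Without the cells that held UMIs of at least 3 mitotic genes, the steps in the members were 2.91-fold in S, 2.22-fold in RV, 3.40-fold in RVC and 1.80-fold in RVT.

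**Figure D5:**
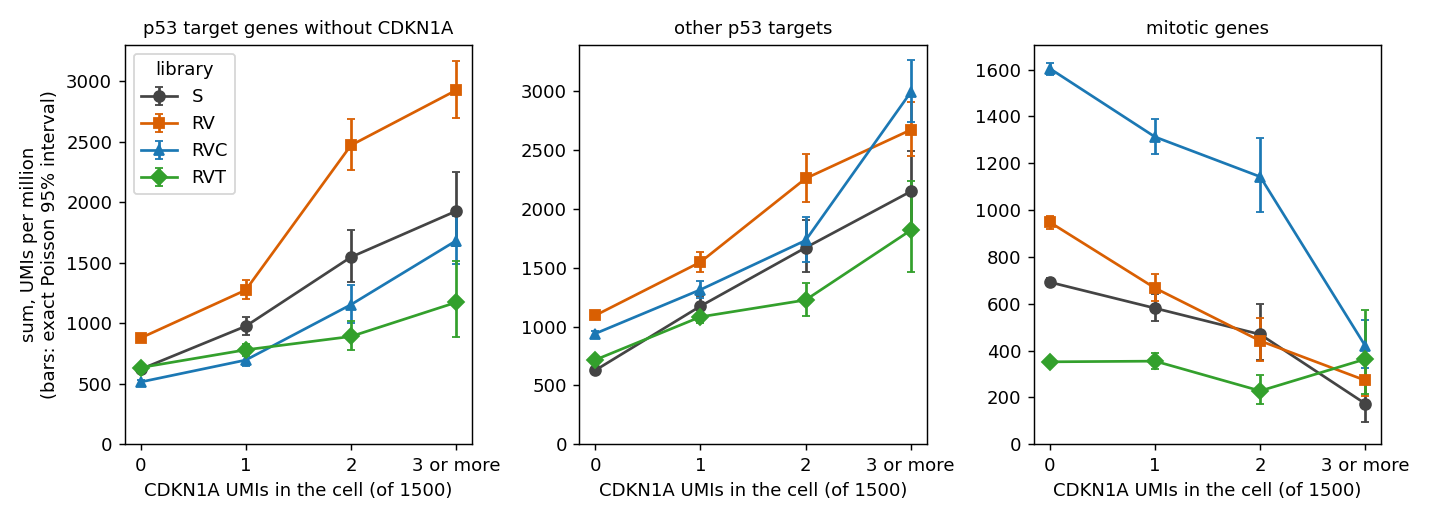
Summed level in CPM of the p53 target genes without CDKN1A (left), of 15 other p53 targets (middle) and of 20 mitotic genes (right), in cells thinned to 1500 UMIs and grouped by their CDKN1A UMIs; bars are exact Poisson 95% intervals. The left and middle sums climb with CDKN1A in all 4 libraries, from 877 to 2925 CPM for the members in RV. The mitotic sum falls in S, RV and RVC. In RVT it is 352, 355 and 228 CPM with 0, 1 and 2 CDKN1A UMIs. The last RVT group has 364 CPM with a wide interval (216 to 575).

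Member by member, cells with at least 2 CDKN1A UMIs were set against cells with 0. MDM2 had 15.8 CPM in the latter and 147 in the former in S, 18.5 and 136 in RV, 17.2 and 136 in RVC, and 29.8 and 107 in RVT. Its log2 ratios of 3.22, 2.88, 2.99 and 1.84 had intervals above zero in all 4 libraries, which among the members was also so for BTG2 and ZMAT3. FDXR went from 15.2 to 152 CPM in S and from 27.3 to 165 in RV, and GDF15 from 6.6 to 122 CPM in RVC. DDB2 had log2 ratios of 2.17 in S, 2.06 in RV and 2.13 in RVC, but in RVT the value of 0.76 had an interval from -0.58 to 1.84.

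Of the 6 members more than 2-fold above S in RVT, BTG2, ZMAT3, RRM2B and CYFIP2 had log2 ratios of 1.96, 1.13, 1.74 and 1.60 in that library, with intervals above zero. TP53INP1 had 1.01 (-0.15 to 1.97) and CMBL -0.57 (-1.33 to 0.10). CCNG1 had intervals that reach across zero in S (-0.08), RVC (0.13) and RVT (0.24), but in RV its log2 ratio was 0.74 (0.21 to 1.24). SESN2 had intervals that reach across zero in all 4 libraries, with log2 ratios of -0.21 in S, 0.28 in RV, 1.18 in RVC (-0.76 to 2.62) and 0.12 in RVT. Among the other targets, PMAIP1 had -1.43 in S (-3.05 to -0.19, from 5 UMIs in the high group), and BAX had 1.5006 in S and 1.24 in RV. In cells thinned to 5000 UMIs the value of PMAIP1 was -0.34 (-0.63 to -0.07) in S and -0.22 (-0.40 to -0.04) in RV.

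The spread across cells was described with the Fano factor, the variance of the thinned counts over their mean, which is 1 where counts vary by sampling alone. At 1500 UMIs CDKN1A had 1.69 in S, against 2.13 in RV, 2.68 in RVC and 1.29 in RVT, where the median of all genes was 1.01. Its mean UMIs per cell were 0.130, 0.325, 0.192 and 0.169 in the same order. The factor was not adjusted for the mean, so these values do not rank the libraries by spread. GDF15 had 1.54 in S, 2.38 in RV and 1.25 in RVC. GADD45A had 2.38 in RV, against 1.14 in S and 1.01 in RVC. AEN had 1.34 in RV. The factor was taken only where a member had at least 5 CPM in the library, and all other such values were at or below 1.23.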

How the data were processed

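The authors deposited 1 filtered table of UMI counts per gene and cell barcode for each of 4 libraries (1 per condition), made with Cell Ranger on GRCh38 per the submitters' processing notes. The deposited values are raw counts, not normalized. S and RV list 703 genes that RVC and RVT do not, and RVC and RVT list 547 others. The deposited barcodes of S and RV exceed the cell numbers stated in the study. Cells with at least 500 genes and at most 20% mitochondrial UMIs were kept. A doublet caller (scanpy 1.11.5) called 0 to 4 barcodes per library, so barcodes were removed from the top of its score at 0.8% per 1000 barcodes.

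UMIs were summed per gene and library and scaled to a library total of 1000000 (CPM). Levels have exact Poisson 95% intervals and ratios exact conditional binomial ones. Ratios were counted where the larger value reached 5 CPM. Cells were thinned to 1500 UMIs for correlation, which left out 397 cells in RVC and 844 in RVT, and were also thinned to 5000 UMIs in S and RV, which left out 350 and 100. Ratios and correlations were tested on simulated data. TMM factors came from edgeR 4.0.16. GC content was taken over the last 500 bases of GENCODE transcripts, and promoter windows were from RefSeq. The members and lists were chosen with earlier results of these data known. Every member is named, and other genes were named from the lists (p53 regulators, other p53 targets, mitotic genes, markers) or as the 5 genes of highest r per library. The levels of 4 further lists are in the closing section. Alternatives changed the scaling, the filters, the fold, the depth and the measure of correlation. Some items are not reported here.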

Additional observations from a re-analysis of the deposited data

How the results depend on the processing

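With 1 library per condition no alternative gives a replicate error. No paired analysis was possible because each condition has 1 library. TMM library factors moved the median log2 ratio of all genes from 0.44 to -0.16 in RVT over S. The counts past 2-fold kept to within 1.5 times of their value in 78 cases and moved in 10. At 1.5-fold the members above were 14 in RV over S (6.80% of all genes) and 4 in RVC over S (38.9%), and those below 11 in RVC over S (30.6%) and 8 in RVT over RVC (19.7%). With at least 20 CPM the members above were 1 in RVC over S (24.7%), 3 in RVT over S (32.4%) and 4 in RVT over RVC (18.4%), and those below 3 in RVT over RVC (13.5%). In RVC over S the members above were 4 with equal weight per cell (25.8%) and 1 after centring by GC content (22.8%).

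The log2 ratio of the sums in RV over S was 0.75 with TMM, 0.73 without ribosomal protein and mitochondrial genes, 0.74 with equal weight, 0.71 without CDKN1A and 0.59 as the median of the members. In the same order RVC over S had -0.42, -0.40, -0.16, -0.33 and -0.41, and -0.0598 after centring. RVT over S had -0.60, -0.17, 0.00921, -0.12 and -0.32, and RVT over RVC had -0.18, 0.24, 0.17, 0.21 and 0.16, and 0.0885 with at least 1000 genes per cell. The sign of RVT over S thus reversed with equal weight and that of RVT over RVC with TMM, and the cause was not tested.

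With cells at their own depth, members with r of at least 0.1 numbered 16 in S (1.05% of all genes), 25 in RV (4.42%) and 1 in RVT (0.0447%). At r of at least 0.05 they were 10 in S (0.710%) and 16 in RV (2.64%), with 7 in RVC (0.640%) and 3 in RVT (0.168%). Without mitotic cells S had 4 (0.199%). RVC had 2 with another random draw (0.0966%), with at least 1000 genes per cell (0.109%) and with Spearman correlation (0.0604%). Thinning to 5000 UMIs, chosen after seeing the data, gave 11 in S (0.523%) and 17 in RV (2.02%). Leaving mitotic cells out of the CDKN1A groups, also chosen after seeing the data, moved the log2 step in RV from 1.74 to 1.15. The steps of S (1.54), RVC (1.77) and RVT (0.85) without these cells stayed within the intervals of their main values. So did the steps of S (1.43) and RV (1.63) in cells thinned to 5000 UMIs, where the CDKN1A UMIs are counted among 5000.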

Other observations

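Other lists of growth and stress genes differed between the libraries as well. The 20 genes of the G1/S step summed to 448 CPM in S and 577 in RV, with 574 in RVC and 176 in RVT, and the 20 mitotic genes to 761, 962, 1596 and 431 CPM. The genes of ATF4 and the stress response, to which SESN2 also responds, had 1195 CPM in S, as compared with 922 (RV), 211 (RVC) and 406 (RVT). The immediate-early genes had 471, 491, 416 and 407 CPM, and IER3 held 39.9% of this sum in S. In RVC over S 5 of 9 of these genes were at least 2-fold higher (24.5% of all genes) and 3 at least 2-fold lower (23.2%). In RVT over S 5 of 10 were at least 2-fold higher (35.0%) and 3 at least 2-fold lower (21.9%). The mesenchymal markers had 2912, 3223, 929 and 709 CPM. VIM held 83.6% of the mesenchymal sum in S and 46.7% in RVT, and in RVT 2 of the 4 markers were above S and 2 below it.

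Of the other CDK inhibitors, CDKN2C, of the INK4 family, had 13.9 CPM in S, against 14.1 in RV, 53.2 in RVC and 103 in RVT. CDKN1B, which encodes p27 and is of the same family as CDKN1A, had 9.43, 6.996, 8.92 and 45.3 CPM, and CDKN1C had 7.43, 1.60, 1.49 and 2.09 CPM. CDKN2B had 0 UMIs in every library. In RVT 2 of the 5 with at least 5 CPM were above S and 3 below it, with a median log2 ratio of -0.73 (60.8% of all genes were above S, with a median of 0.44), while their sum, of which CDKN2C is 64.4% in RVT, was 3.07-fold above S.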
